A study of Mus musculus with 2 samples.

Results

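The 76 genes described here encode proteins of the mitochondrial ribosome and were chosen by name. They are all genes whose symbol in the array's platform annotation starts with Mrpl or Mrps followed by a digit, read from probe sets that carry 1 gene symbol. They make up 76 of 18193 genes, and 156 of the 45101 probe sets in the deposited table belong to them. Each gene was read from its probe set with the highest mean over both arrays. All 76 lay above the floor for dim signals, a log2 signal of 5.52, under which 40% of all probe sets fell, as did 14093 genes in all.

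The study measured total RNA of diaphragm muscle from C57/BL6 mouse embryos at stage E18.5, late in gestation, with 1 Affymetrix array from the genotype RP58+/+ (wild type) and 1 from RP58-/- (knockout). RP58, now named Zbtb18, is a zinc finger protein that represses transcription. Neither the making of the allele nor the number of embryos behind a sample is stated in the sources used here. The comparison asks how gene expression in muscle differs when RP58 is missing.

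The mitochondrial ribosome sits in the matrix and translates the few messages of mitochondrial DNA, all of which encode core subunits of the respiratory chain and of ATP synthase. Its RNAs come from mitochondrial DNA, whereas its proteins are encoded in the nucleus, made in the cytosol and imported. Some of these proteins descend from the bacterial ribosome, and others were added in the mitochondrial lineage. Muscle fibres hold many mitochondria, and human mutations in several of these genes cause cardiomyopathy or encephalopathy.

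The values are deposited log2 signals from the RMA method, and each difference is the log2 signal on the array labelled knockout minus that on the array labelled wild type. Pairs of signals are given in the order labelled wild type, then labelled knockout. With 1 array per genotype, no difference has a replicate check and no test was possible, and the number of arrays limits the precision. A gene counts as lower or higher from 1.5-fold upwards (a log2 difference of 0.58), and counts at a smaller size, a log2 difference of 0.32, are given beside it. The only repeat measurement is that of several probe sets for 1 gene, whose differences had a pooled SD of 0.28 over 5675 genes. RMA makes the arrays' distributions nearly equal, so each difference is relative to the typical gene, and the median of all genes was -0.003.

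Several facts of the arrays touch every value that follows. The 1 named probe set of Zbtb18 read 8.91 and 9.21, and its position relative to the deleted part is unknown here, so it does not check the labels. Xist, which silences an X chromosome in females, read 11.47 and 6.96. The Y-linked genes went the other way, with Eif2s3y at 3.59 and 8.58 and Kdm5d at 4.09 and 7.40. The arrays thus differ in sex-linked signal, and genotype label and sex-linked signal cannot be told apart. All 18 muscle fibre markers were above the floor and below 0, with a median difference of -1.51 and a summed linear signal on the array labelled knockout of 0.487 times that on the array labelled wild type. The 13 liver markers had a median of 0.82 and the 9 mesothelium markers 0.58, and their summed signals were 1.48 and 1.53 times as high. The 24 poly-A spike-in probe sets, control RNAs whose amount and time of addition are unknown here, were lower by a median of 0.75 on the log2 scale (-0.75).

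The genes of the mitochondrial ribosome were lower as a group on the array labelled knockout relative to the typical gene, although scaling to the poly-A spike-ins would put their median above 0 (0.37), together with that of all genes (0.74). Of the 76 members, 70 were below 0, against 50.4% of all genes. By the 1.5-fold rule 23 were lower, against a background of 6.51%, and 0 were higher, against 3.83%. At the smaller size, 43 were lower (background 16.1%) and 0 were higher (background 13.1%). The median difference was -0.38, or 1.3-fold lower. The values ran from -1.01 to 0.23, so no member differed by as much as the median fibre marker. Among the 9045 genes with a mean signal in the range of the members, 7.71% were lower and 4.39% higher by 1.5-fold, 18.1% were lower and 13.2% higher at the smaller size, and 52.2% were below 0. With no replicate arrays, these counts describe the 2 samples. In a bulk sample, fewer cells of a type and less RNA per cell cannot be told apart, and the part that the lower fibre markers and the higher liver and mesothelium markers have in these values was not tested.

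**Figure D1:**
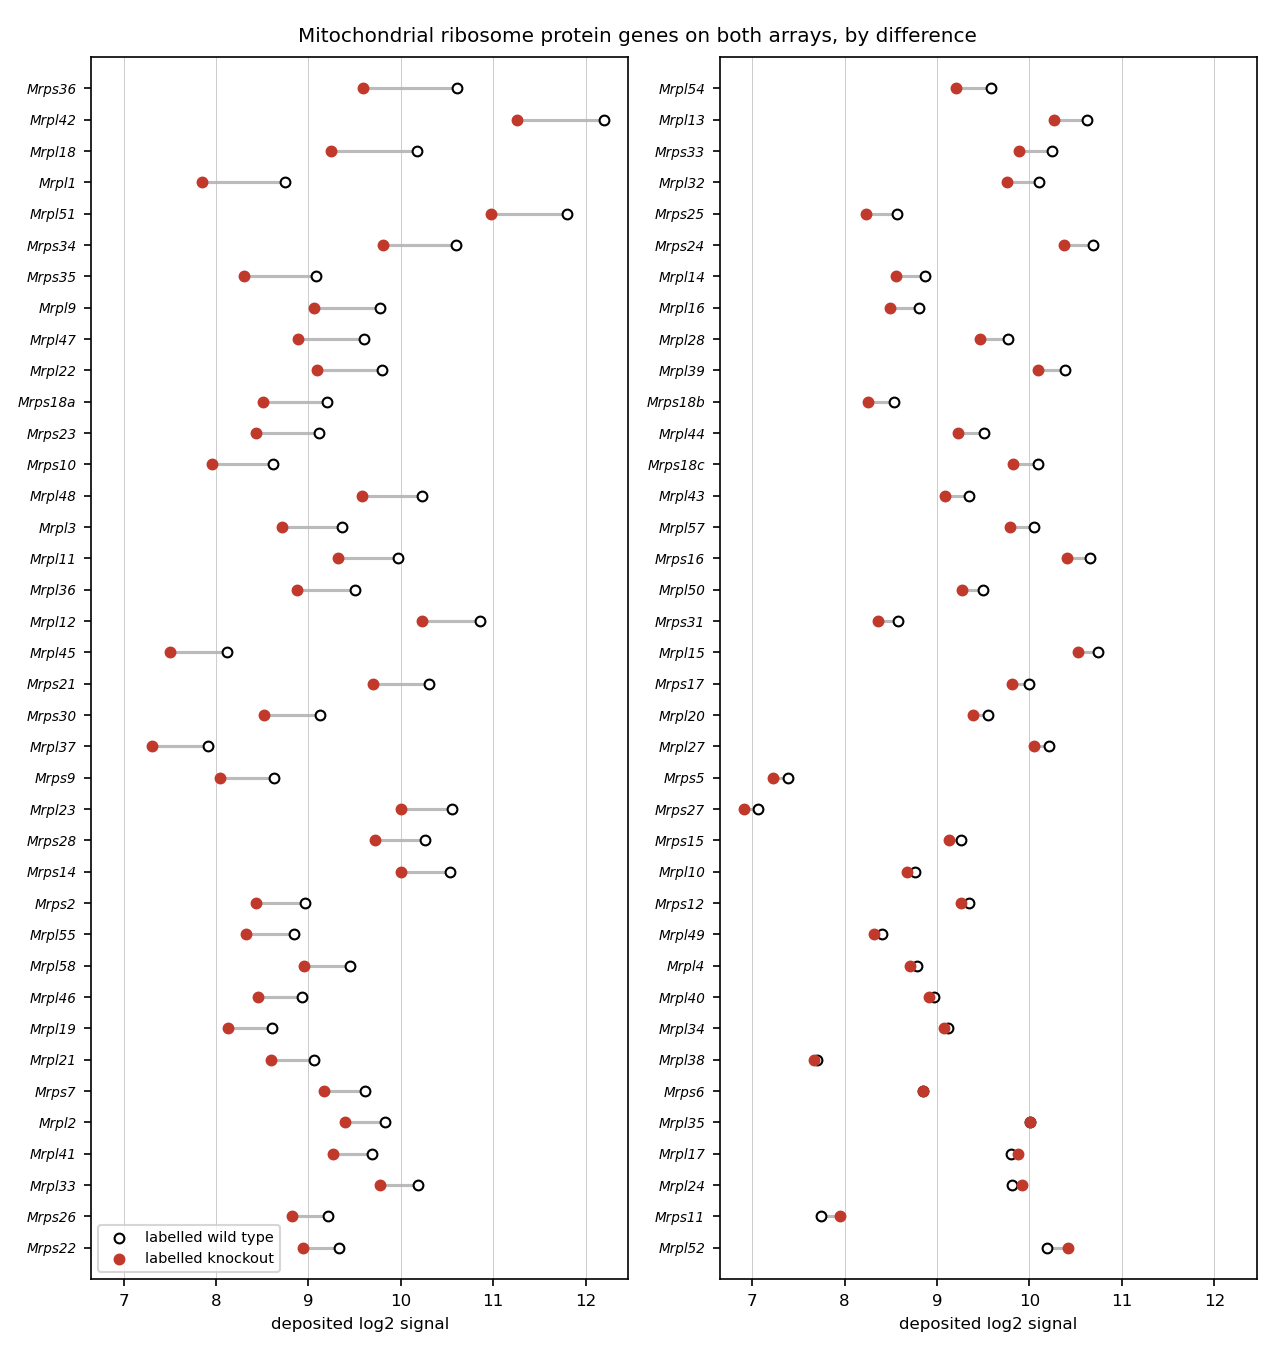
Deposited log2 signals (x axis) of all 76 members on the array labelled wild type (open circles) and the array labelled knockout (filled circles), sorted from the lowest difference (top left) to the highest (bottom right). In 70 members the filled circle lies to the left of the open one, with signals as deposited and before any scaling to spike-ins.

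The largest difference belonged to a gene whose name is misleading. Mrps36 read 10.61 and 9.59, a difference of -1.01 (2.02-fold lower). Its product was first listed as a small-subunit protein and is now known as a subunit of the 2-oxoglutarate dehydrogenase complex of the citric acid cycle. It is kept here because the symbol decides membership, and without it 22 of 75 members were lower and the median was -0.38.

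In the large subunit, which joins amino acids into the peptide chain, 16 of 49 genes were lower by 1.5-fold and the median was -0.41. The 29 members with a bacterial counterpart had 9 lower, with a median of -0.41. The 20 mitochondria-specific members had 7 lower, with a median of -0.40.

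Among large-subunit proteins with a bacterial counterpart, Mrpl18 had the lowest value. It read 10.17 and 9.24 (-0.93, 1.9-fold lower). Its product belongs to the family that binds 5S ribosomal RNA in bacteria. Mrpl1, which forms the stalk beside the exit site for spent transfer RNA, read 8.74 and 7.85 (-0.89). Its second probe set above the floor differed by -0.12, so the size of this difference rests on 1 probe set. Mrpl9 read 9.78 and 9.06 (-0.71). All 3 of its probe sets were below 0, from -0.71 to -0.45. Mrpl3, whose product reaches towards the catalytic centre, read 9.37 and 8.72 (-0.65), while its 4 probe sets ran from -0.65 to 0.14. Mrpl36, one of the smallest ribosomal proteins, read 9.51 and 8.88 (-0.63).

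Among the mitochondria-specific large-subunit proteins, Mrpl42 was the lowest, with signals of 12.20 and 11.25 (-0.94, 1.92-fold lower). Its second probe set above the floor was lower as well (-0.58). Mrpl51 read 11.80 and 10.98 (-0.82), and its second probe set differed by -0.30. Mrps18a, a large-subunit protein in spite of its name, read 9.21 and 8.51 (-0.70). Mrps30 carries a small-subunit name too and also sits in the large subunit. It read 9.12 and 8.52 (-0.60). Mrpl37 read 7.91 and 7.31 (-0.60). These 5 genes had higher signals on the array labelled wild type in every probe set above the floor.

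The proteins around the mouth of the peptide exit tunnel differed among themselves. Of 7 genes, 3 were lower by 1.5-fold, 5 were below 0 and the median was -0.55. Mrpl22, whose product lines the tunnel, read 9.80 and 9.09 (-0.71). Mrpl47 read 9.60 and 8.89 (-0.71). Mrpl45 encodes the protein that holds the ribosome to the inner membrane, where its products are inserted, and read 8.12 and 7.50 (-0.61). Mrpl23, beside them in the ribosome, lay just short of the rule with 10.55 and 10.00 (-0.55). In contrast, Mrpl24 read 9.81 and 9.91 (0.10) and Mrpl17 read 9.80 and 9.87 (0.07), both within the SD between probe sets. The brightest probe set of Mrpl44 gave -0.28, and the other 3 gave -0.84, -0.93 and -0.45. Its product resembles RNA-cutting enzymes of the RNase family, and human mutations in it cause cardiomyopathy.

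In the side stalk that recruits translation factors, 2 of 3 genes were lower. Mrpl12, the flexible stalk protein, which also binds the mitochondrial RNA polymerase, read 10.85 and 10.23 (-0.62). Mrpl11, at the base of the stalk, read 9.97 and 9.33 (-0.64), with 3 probe sets from -0.64 to -0.43. Mrpl10, the protein that anchors Mrpl12, read 8.76 and 8.67 (-0.09). The neighbours in this small complex thus gave unequal values on these arrays.

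In the central protuberance, the crest of the large subunit, all 8 genes were below 0 and 2 were lower by 1.5-fold, with a median of -0.49. Besides Mrpl18, Mrpl48 was lower, with signals of 10.23 and 9.58 (-0.65), whereas its second probe set differed by -0.24. Mrpl55 (-0.52), Mrpl58 (-0.50) and Mrpl46 (-0.48) followed. Mrpl58 is built into the ribosome and can release peptides from stalled ribosomes. The remaining members were Mrpl27 (-0.16), Mrpl40 (-0.05) and Mrpl38 (-0.03). Read from probe sets of the plain kind alone, without those named _s_at, _x_at and _a_at, 6 of the 8 genes remained measurable and the median was -0.20.

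In the small subunit, which reads the message, 6 of 26 genes were lower by 1.5-fold and the median was -0.34. The 16 members with a bacterial counterpart had 3 lower, with a median of -0.30, and the 10 mitochondria-specific members had 3 lower, with a median of -0.37. The share of lower genes was 23.1% here and 32.7% in the large subunit, and with 1 array per genotype that difference was not tested.

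**Figure D2:**
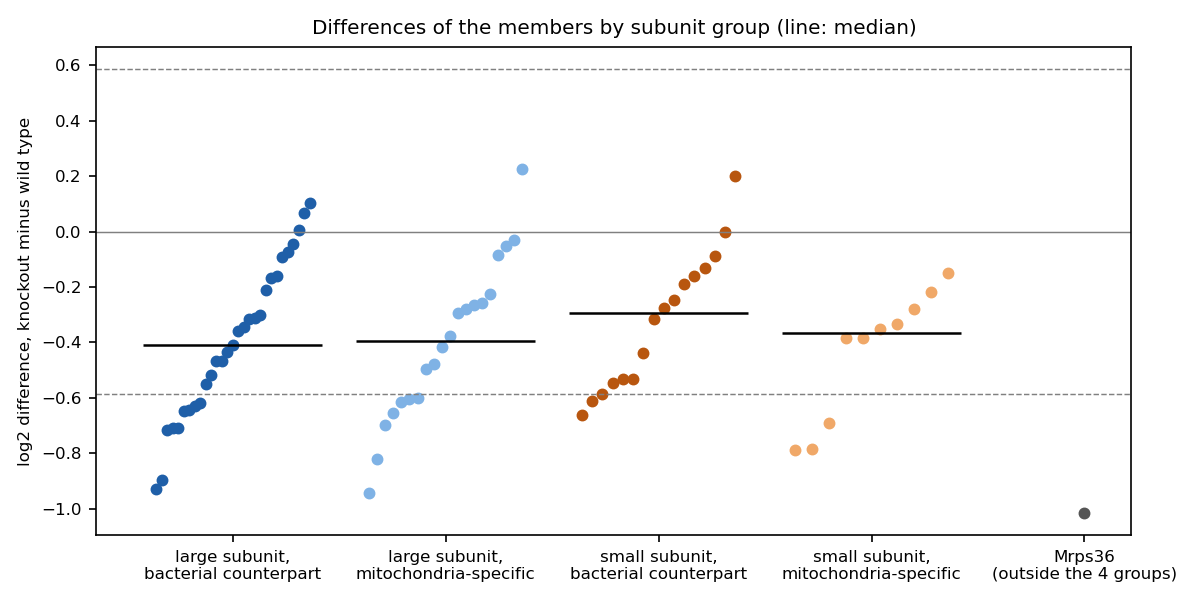
Log2 differences (labelled knockout minus labelled wild type, y axis) of the members by subunit and by whether the protein has a bacterial counterpart, sorted within each group, with the median as a bar and dashed lines at 1.5-fold. The 4 medians lie between -0.41 and -0.30, and each would lie above 0 after scaling to the poly-A spike-ins.

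Mitochondria-specific small-subunit genes held the lowest values of this subunit. Mrps34, mutated in a form of Leigh syndrome, read 10.60 and 9.81 (-0.79, 1.73-fold lower). Mrps35 read 9.08 and 8.30 (-0.78). Mrps23 had 3 probe sets, and all were lower by 1.5-fold, at -0.69, -0.98 and -1.05. Its brightest probe set read 9.12 and 8.43. At the other end of this group Mrps27 differed by -0.15 and Mrps31 by -0.22, while Mrps26 and Mrps22 lay near its median, at -0.39 and -0.38.

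Of the small-subunit genes with a bacterial counterpart, Mrps10 read 8.62 and 7.96 (-0.66), Mrps21 read 10.31 and 9.70 (-0.61) and Mrps9 read 8.62 and 8.04. Mrps9, at -0.59, was the member just inside the 1.5-fold rule. Its 4 probe sets ran from -0.71 to -0.08. Just outside the rule, after Mrpl23, came Mrps28 (-0.55), Mrps14 and Mrps2 (both -0.53). Mrps12, whose product lines the decoding centre, read 9.35 and 9.26 (-0.09). Mrps6 had equal signals of 8.84 on both arrays, and its second probe set also differed by 0.00. The brightest probe set of Mrps5 gave -0.16, and its other 4 lay above 0, up to 0.34.

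The 3 paralogs that share the name Mrps18 are related to a single bacterial protein family and occupy different sites of the ribosome. In the groups above only Mrps18c counts as having a bacterial counterpart, and Mrps18a and Mrps18b count as mitochondria-specific. Mrps18a (-0.70) is a large-subunit protein. Mrps18b read 8.54 and 8.26 (-0.28) and Mrps18c read 10.09 and 9.82 (-0.27), and both belong to the small subunit. Each gene was read by 1 probe set above the floor, so no second reading bears on the gap between Mrps18a and the others.

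The members between these extremes ran from -0.47 to -0.04 and hold some of the oldest parts of the ribosome. Mrpl2, which lies at the catalytic core, read 9.83 and 9.40 (-0.43), and Mrps7, which touches the message path in the small subunit, read 9.61 and 9.17 (-0.44). Mrpl4, which reaches into the exit tunnel, read 8.78 and 8.71 (-0.07). These conserved core proteins thus spanned most of this middle range. For several genes more than 1 probe set gave nearly the same value. The probe sets of Mrps24 gave -0.32 and -0.31, those of Mrpl41 gave -0.41 and -0.51, and the 3 of Mrpl28 ran from -0.47 to -0.25. For others the second reading was lower than the brightest, as in Mrpl50 (-0.23 and -0.67) and Mrpl13 (-0.36, with others at -0.76 and -0.38). Mrpl19 differed by -0.47, Mrpl33 by -0.41, Mrpl54 by -0.38, Mrps33 by -0.35 and Mrpl32 by -0.34. Mrpl14 and Mrpl16 each differed by -0.31, Mrpl39 by -0.29, Mrpl43 by -0.26, Mrps16 by -0.25, Mrps17 by -0.19, Mrpl20 by -0.17, Mrps15 by -0.13, Mrpl49 by -0.08 and Mrpl34 by -0.04. None of these members reached the 1.5-fold rule on its brightest probe set.

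The highest members lay close to 0. Mrpl52 read 10.19 and 10.41 (0.23), but its 3 probe sets ran from -0.22 to 0.23. Mrps11 read 7.75 and 7.95 (0.20). Together with Mrpl24, Mrpl17 and Mrpl35 (0.00), these were the 5 members above 0. None of them reached the SD between probe sets of 0.28, whereas 49 members lay below -0.28. The share of all genes below -0.28 was not counted, so the count of 49 is not shown to be particular to the members. The SD describes spread between probe sets and is not a rule for counting a gene as lower. The spread between embryos was not measured, so the full error in the order of the members is unknown. Only the part between probe sets can be given.

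Probe sets of the same gene mostly shared the sign of the difference and often differed in its size. The members had 133 probe sets above the floor, with a median of -0.35. Of these 111 gave a difference below 0, against 50.7% of all probe sets above the floor. The 1.5-fold rule was passed by 33 downwards and 0 upwards, and the share of all probe sets past it was not counted. For 33 members with 2 or more such probe sets, all were below 0 in 22 genes, all were above 0 in 0 genes, and they reached both sides of 0, or 0 itself, in 11. Read from the second brightest probe set, the same 33 genes had a median of -0.36, and 26 were below 0 and 7 lower by 1.5-fold. Over all 5675 genes read that way, the median was -0.02, with 52.0% below 0 and 6.64% lower by 1.5-fold. Of the 9 members among the 33 that the brightest probe set put past the rule, the second brightest put 2 past it.

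Among genes with probe sets on both sides of 0, the widest disagreements were those of Mrps25 (-0.74 to 0.14), Mrpl21 (-0.47 to 0.34), Mrpl15 (-0.47 to 0.32 over 7 probe sets), Mrpl3 and Mrpl35 (-0.45 to 0.25). Mrps5 (-0.16 to 0.34), Mrpl52 and Mrpl57 (-0.26 to 0.06) also had probe sets on both sides of 0, more than 0.28 apart. In Mrpl3, Mrpl15, Mrpl21 and Mrps25 the brightest probe set was itself below 0. Any probe set above 0 was thus dimmer by definition, which says nothing about which reading is right. The brightest probe set of Mrpl21 read 9.06 and 8.60, while the other read 6.02 and 6.36.

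**Figure D3:**
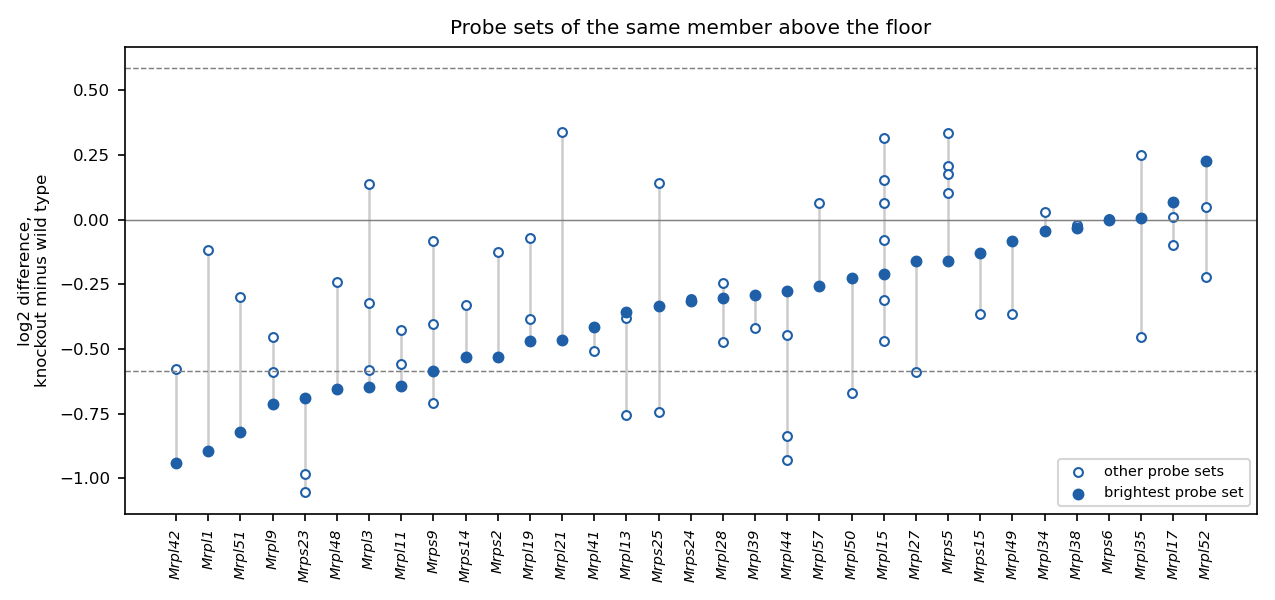
Log2 differences (labelled knockout minus labelled wild type, y axis) of every probe set above the floor for the 33 members that have 2 or more, with the brightest probe set filled and the others open, and dashed lines at 1.5-fold. Of all 133 member probe sets above the floor, 111 are below 0 (50.7% over all genes' probe sets above the floor). Of the 133, 0 reach the upper dashed line. Differences are as deposited and before any scaling to spike-ins.

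Proteins of the mitochondrial ribosome that carry other names gave values within the range of the members. Ptcd3, a small-subunit protein that binds RNA, read 8.90 and 8.17 (-0.73). Gadd45gip1, a large-subunit protein first described as a partner of a stress protein, read 9.16 and 8.45 (-0.71). Chchd1 differed by -0.38. Dap3, a GTP-binding protein of the small subunit, read 9.32 and 9.38 (0.06). Of these 4 genes, 2 were lower by 1.5-fold.

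The genes that build and serve the mitochondrial ribosome had medians nearer to 0 than the ribosomal proteins, relative to the typical gene, and above 0 after scaling to the poly-A spike-ins. These lists were also dimmer than the members, whose mean signal on the array labelled wild type was 9.50. Assembly factors had a mean of 7.79 there, translation factors 7.92 and tRNA synthetases 7.09. The difference from the ribosomal proteins was not tested, nor was the part that signal level has in it. Assembly factors numbered 24 above the floor. Of these 19 lay below 0, 2 (8.33%) passed the 1.5-fold rule downwards and 0 upwards, with a median of -0.20. Over all genes 50.4% were below 0, 6.51% lower and 3.83% higher, and these shares also stand beside the lists that follow. The count of 2 is so near its share that it is no result about the assembly factors. Malsu1, which keeps an immature large subunit from joining too early, read 10.11 and 9.39 (-0.73). Mterf3 read 9.22 and 8.60 (-0.62), and Trub2, which modifies RNA, 7.95 and 7.45 (-0.50). At the other end, Mettl17 read 7.40 and 7.82 (0.42).

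Of 12 mitochondrial translation factors, 11 were below 0, 2 were lower and 0 were higher, with a median of -0.28. The release factor gene Mtrf1l read 6.76 and 5.74 (-1.01). Tufm, the elongation factor that brings transfer RNA to the ribosome, read 9.12 and 8.30 (-0.81). The initiation factor gene Mtif3 differed by -0.48. Mitochondrial tRNA synthetases, which load amino acids onto transfer RNA, had a median of -0.04, with 2 of 15 lower and 0 higher. Yars2 read 8.22 and 7.35 (-0.87) and Hars2 6.92 and 6.31 (-0.61), whereas Nars2 lay at -0.54 and Vars2 at 0.42.

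Genes that transcribe mitochondrial DNA or drive mitochondrial biogenesis had a median of -0.40, with 5 of 19 lower and 0 higher. The transcription elongation factor gene Tefm read 8.40 and 7.30 (-1.10), Tfb2m, which opens the promoter, 8.73 and 7.95 (-0.78), and the nuclear receptor gene Esrra 8.20 and 7.47 (-0.72). The RNA polymerase gene Polrmt itself read 7.50 and 7.44 (-0.06). Gabpa and Nrf1, which encode activators of many nuclear genes for mitochondrial proteins, differed by -0.47 and -0.06.

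**Figure D4:**
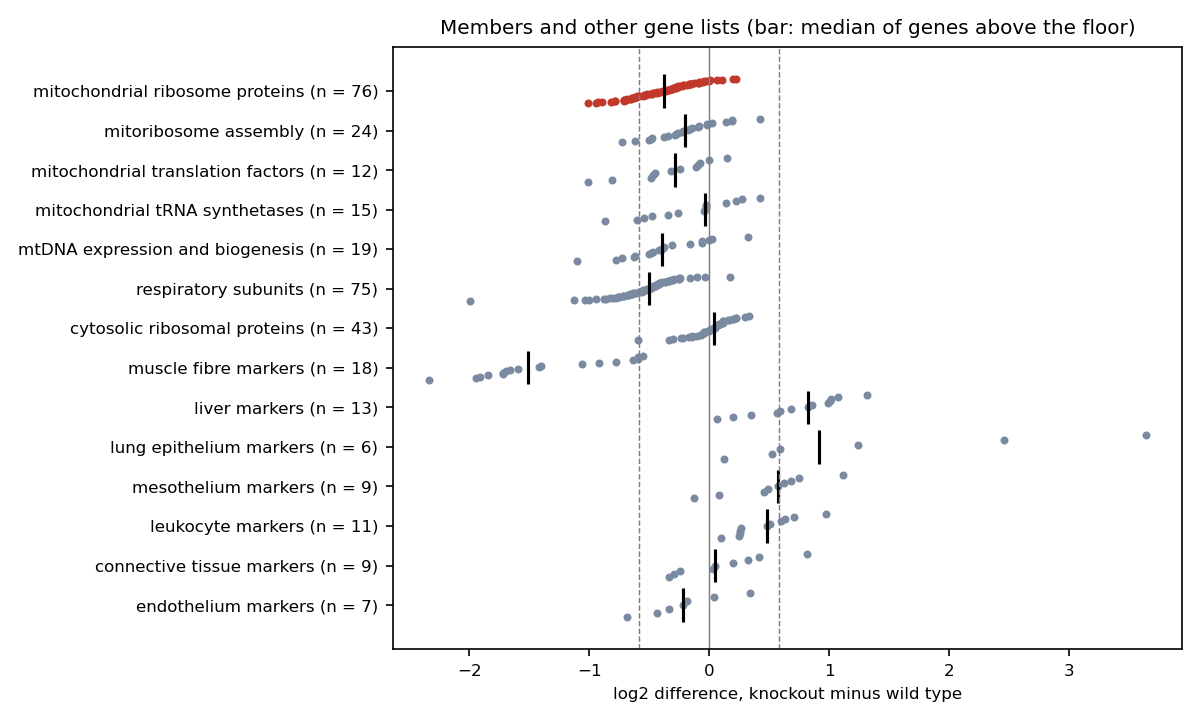
Log2 differences (x axis, labelled knockout minus labelled wild type) of the members and of other gene lists, 1 point per gene above the floor, with the median as a bar and dashed lines at 1.5-fold. The members' median (-0.38) lies between that of respiratory subunits (-0.50) and that of cytosolic ribosomal proteins (0.04), all relative to the typical gene, and scaling to the poly-A spike-ins would add 0.75 to every point and leave the fibre markers (-0.76) as the only list drawn with a median below 0.

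The members lay between the other large mitochondrial machinery and the ribosome of the cytosol. Nuclear-encoded respiratory subunits, whose partners the mitochondrial ribosome makes, had a median of -0.50, with 74 of 75 below 0, 26 lower by 1.5-fold and 0 higher. Their range reached much further down, to Cox7a1 (-2.0), Cox6a2 (-1.13) and Ndufa5 (-1.04), of which Cox7a1 and Cox6a2 are isoforms of striated muscle. The cytosolic ribosomal proteins had a median of 0.04, with 17 of 43 below 0, 1 lower (Rpl12, 7.66 and 7.07) and 0 higher. Summed on the linear scale, the signals of the mitochondrial ribosome on the array labelled knockout were 0.74 times those on the array labelled wild type, those of respiratory subunits 0.713 times and those of the cytosolic ribosome 1.02 times. The distance between these lists was not tested.

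Other cell types did not all shift the same way, and several of their marker lists had medians above 0. Of 9 lung epithelium markers 6 were above the floor, and all 6 were above 0 (median 0.91, led by the surfactant gene Sftpc at 3.64). Under the floor, Scgb1a1 (-0.47) and Nkx2-1 (-0.06) were below 0 and Sftpa1 (1.33) was above it. The lung median was 0.59 over all 9 markers with no floor and 1.85 over the 4 left by a floor at the 60th percentile. Above 0 too were all 11 leukocyte markers (median 0.48). Liver markers were all above 0 and reached 1.32 for Hpx. Markers of connective tissue (median 0.05), endothelium (-0.22) and erythroid cells (-0.24) were nearer to 0. Casq1 (-2.34), Myh8 (-1.94) and Mybpc1 (-1.91) were the lowest fibre markers. The part of these markers in the values of the ribosomal genes was not tested.

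Promoters were examined because the members were lower together relative to the typical gene, and a few sequences are printed to show where a motif stood in members with low and with high differences. RefSeq promoters of build GRCm38.p6, from 250 bases before to 50 after the start of transcription, were found for 67 of the 76 genes (73 promoters). Motifs of 7 letters were searched on both strands: CCGGAAG for the ETS family, to which Gabpa belongs, GCATGCG for Nrf1, GATGGCG for YY1 and ACATCTG for RP58. The Nrf1 motif overlaps its own reverse complement by all but 1 base. The ETS motif was present in 25 of the 73 promoters (34.2%), against 14.8% of promoters of genes above the floor and 8.86% of all promoters. The Nrf1 motif was in 11.0% (8 of 73), against 5.51% and 3.58%, and the YY1 motif also in 11.0%, against 5.45% and 3.49%. The RP58 motif was in 3 promoters (4.11%), against 2.87% and 4.43%.

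The ETS motif was in 33.3% of the 24 promoters of members lower by 1.5-fold and in 34.7% of the 49 promoters of the others. The Nrf1 motif was in 8.33% (2 of 24) and 12.2% (6 of 49), and the YY1 motif in 16.7% (4 of 24) and 8.16% (4 of 49). These counts are small and no test was made of them. The RP58 motif was in 0 of the 24 and in 3 of the 49, those of Mrpl55, Mrpl58 and Mrps22. The ETS motif was also in 43.2% of the promoters of cytosolic ribosomal proteins, whose median difference was 0.04. In the same promoters the Nrf1 motif was in 9.09% and the YY1 motif in 4.55%. Promoters of respiratory subunits held the ETS motif in 25.4%, the Nrf1 motif in 14.9% and the YY1 motif in 13.4%. The Nrf1 and YY1 shares are thus not particular to the members. Median GC content was 58.7% in member promoters and 59.7% in promoters of genes above the floor. A match is a description of letters in the window and does not show binding.

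The sequences are the 150 bases before the start of transcription on the gene's own strand, 5′ to 3′, with matches to the ETS and Nrf1 motifs in capitals. Mrpl22 (-0.71; chr11:58171514-58171663, plus strand), Mrpl51 (-0.82; chr6:125192050-125192199, plus strand) and Mrpl9 (-0.71; chr3:94443186-94443335, plus strand) were among the lowest members. Mrpl17 (0.07; chr7:105811088-105811237, minus strand) and Mrpl52 (0.23; chr14:54426759-54426908, plus strand) were among the highest.
Mrpl22: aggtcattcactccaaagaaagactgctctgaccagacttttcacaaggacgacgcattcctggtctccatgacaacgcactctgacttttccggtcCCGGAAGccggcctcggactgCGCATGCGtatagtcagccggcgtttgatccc
Mrpl51: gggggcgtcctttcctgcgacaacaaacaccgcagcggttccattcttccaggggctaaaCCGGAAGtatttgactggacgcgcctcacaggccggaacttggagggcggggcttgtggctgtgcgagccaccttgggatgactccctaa
Mrpl9: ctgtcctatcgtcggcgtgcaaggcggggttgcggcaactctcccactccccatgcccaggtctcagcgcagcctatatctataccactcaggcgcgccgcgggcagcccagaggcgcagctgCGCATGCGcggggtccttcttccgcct
Mrpl17: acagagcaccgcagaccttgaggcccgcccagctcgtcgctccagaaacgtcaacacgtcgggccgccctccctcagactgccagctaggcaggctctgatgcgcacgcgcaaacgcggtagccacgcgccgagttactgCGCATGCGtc
Mrpl52: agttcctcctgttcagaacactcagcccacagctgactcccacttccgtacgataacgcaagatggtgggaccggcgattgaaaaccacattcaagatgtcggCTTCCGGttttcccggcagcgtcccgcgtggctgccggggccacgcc
Both motifs stood in Mrpl22, the ETS motif in Mrpl51 and in Mrpl52, where it is on the opposite strand, and the Nrf1 motif in Mrpl9 and Mrpl17. These 5 were chosen because they hold a motif and lie near either end of the range, so they show nothing of how motifs and differences relate. Low members without an ETS or Nrf1 match in the same 150 bases include Mrpl18, Mrps23, Mrpl42 and Mrpl47. The window used for the shares above is longer than the printed stretch. In that longer window Mrpl18 and Mrps23 did hold the ETS motif, as did Mrpl17, and Mrpl42 held the YY1 motif. Mrpl47 held none of the motifs there either.

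Some members start near a gene that runs the opposite way. Of the 67 genes with a promoter entry, 25 had such a head-to-head neighbour whose start lay within 1 kb, at up to 935 bases. The share of all genes with such a neighbour was not counted, so this count is not shown to be particular to the members. One pair consists of members only, with starts 42 bases apart on chromosome 7. In it Mrpl46 read 8.93 and 8.45 (-0.48), whereas Mrps11, on the other side, read 7.75 and 7.95 (0.20). Each was read by 1 probe set above the floor. The 41 bases between the starts (chr7:78783090-78783130, written on the plus strand, that of Mrps11) held none of the 4 motifs.
Between the starts of Mrpl46 and Mrps11: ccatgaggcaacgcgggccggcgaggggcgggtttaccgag
Both directions of transcription start from the edges of this stretch, and the differences of the genes on its sides had opposite signs. That of Mrps11 lay within the SD between probe sets of 0.28, so its sign is uncertain. In the longer window used for the shares, the promoter of Mrps11 held the YY1 motif and that of Mrpl46 held none of the motifs.

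The 18 head-to-head neighbours above the floor that are no members had a median of -0.09 and ran from -0.58 to 0.52. The median of their partners among the members was -0.33. Of the neighbours, 11 were below 0 (50.4% of all genes) and 0 were lower by 1.5-fold (6.51% of all genes). Counts so near the shares of all genes are no result about the neighbours. In 15 of the 18 pairs the member was below its neighbour. Since 70 of 76 members were below 0, this count does not depend on the pairing alone, and no other partners were compared. Mrpl18 (-0.93) faced Tcp1, a subunit of the cytosolic chaperonin, which read 11.58 and 11.44 (-0.14). Mrpl51 (-0.82) faced Ncapd2, a condensin gene of mitosis, which read 7.80 and 8.20 (0.40). Mrpl49 (-0.08) faced Fau, which encodes a protein of the cytosolic ribosome and read 12.74 and 12.91 (0.17). In contrast, Mrpl47 (-0.71) faced Ndufb5, a subunit of respiratory complex I, which read 12.51 and 11.94 (-0.56), and Mrpl43 (-0.26) faced the mitochondrial DNA helicase gene Twnk (-0.42). The pairs were described and not tested, and the pairs named were chosen after their values were seen.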

How the data were processed

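Per the series' design text, the authors hybridised cRNA to Affymetrix mouse arrays and computed signals with RMA, and the deposited values are log2 signals per probe set. The submitters' processing notes list Affymetrix Expression Console 1.1. Which arrays shared a normalisation is unknown here. The labels' protocol speaks of RNA from a culture, whereas the design text describes dissected muscle.

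Probe sets were named through the platform annotation, and those with several symbols and control probe sets were left out. All 76 members matched RefSeq genes of GRCm38.p6. Differences, counts and medians were computed with Python 3.11.15, pandas 2.3.3 and statsmodels 0.14.6, and the functions were tested on simulated data. Neither genotype has a second array, so no test was run. The members, gene lists and rules were chosen with earlier results of these data known. Named were all members past 1.5-fold, the 10 lowest and 10 highest, the extremes of each subunit group and region, the Mrps18 paralogs, members whose probe sets disagreed in sign and up to 3 genes of each other list. Further genes were added for their role after their values were seen. The NRF1 and YY1 motif letters were shortened from those first listed, before any promoter was searched. Alternatives were the mean over probe sets, other floors, plain probe sets alone, median or loess centring (fraction 0.3) and poly-A scaling.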

Additional observations from a re-analysis of the deposited data

How the results depend on the processing

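Each gene has 1 array per genotype, so depth and replicate spread are unknown and no alternative measures them. No paired analysis was possible because each genotype has 1 sample. Under the mean over probe sets, no floor, a floor at the 60th percentile, plain probe sets alone and median or loess centring, the median of the members stayed between -0.38 and -0.35 and the count lower by 1.5-fold between 18 and 23, with 0 higher. Plain probe sets measured only 61 members. Of the 23 lower members, 17 stayed lower under the mean over probe sets. Plain probe sets measured 20 of the 23, and 17 of those stayed lower. Scaling to the poly-A spike-ins put 0 members lower by 1.5-fold and 0 lower by the smaller size of 0.32, 17 higher and 7 below 0, with a median of 0.37, while 70.9% of all genes were then higher by 1.5-fold. The same scaling turned the median of the factor-recruiting stalk to 0.13 and these differences: Mrpl9 0.033, Mrpl47 0.038, Mrpl22 0.040, Mrps18a 0.050, Mrps23 0.059, Mrps10 0.088, Mrpl48 0.094, Mrpl3 and Mrpl11 0.10, Mrpl36 0.12, Mrpl12 and Mrpl45 0.13, Mrps21 0.14, Mrps30 0.14, Mrpl37 0.15 and Mrps9 0.16. Chosen after seeing the data, the second brightest probe set, which measures 33 members, gave 7 lower by 1.5-fold, 19 by the smaller size and 26 below 0. Over all genes read that way, 6.64% were lower by 1.5-fold and 52.0% below 0. Without Mrps36, or with probe sets of several symbols, no count moved by more than 2. Plain probe sets alone gave Mrpl1 -0.12, Mrpl51 -0.30, Mrpl48 -0.24, Mrpl52 -0.22, Mrpl21 0.34 and Mrpl15 0.15, and the mean over probe sets gave Mrpl1 -0.51, Mrpl3 -0.35, Mrpl21 -0.06 and Mrps5 0.13.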

Other observations

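Further genes of the mitochondrial ribosome were read by probe sets that carry another gene's symbol as well and were left out above. The brighter probe set annotated to Mrpl30 and the predicted gene Gm6238 read 12.44 and 11.87 (-0.57). The one annotated to Mrpl53 and its neighbour Ccdc142 read 11.29 and 10.52 (-0.77). A probe set annotated to Mrps34 and its neighbour Nme3 read 8.55 and 8.21 (-0.34), beside -0.79 for the probe set of Mrps34 alone. Which gene these signals come from cannot be told from the table. With Mrpl30 and Mrpl53 added, 24 of 78 members were lower by 1.5-fold and the median was -0.38.

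Of 23 member probe sets with a mean below log2 5.52, 8 were below 0, beside 44.6% of all 11884 single-symbol probe sets under the floor. Above the floor 111 of 133 were below 0, beside 50.7% of all such probe sets. With 23 probe sets near background, the first count is no result about the members.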
